A study of Mus musculus with 30 samples.

Results

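Hedgehog signalling genes and Insl3 were followed in the left and right ovaries of 15 female C57BL/6 mice. The genes were taken by symbol from the deposited table: Dhh and Ihh (ligands), Ptch1 and Smo (receptor and signal transducer), Hhip (a ligand-binding inhibitor), Gli1, Gli2 and Gli3 (transcription factors) and Insl3, a peptide hormone. All 9 were found among the 50600 genes of the table. 8 of them were among the 14646 genes tested, those that averaged 5 or more normalized counts. Insl3 was listed at 0 in all 30 libraries. Of the mice, 7 received 3% dextran sulfate sodium (DSS, which damages the colon epithelium and is used to induce colitis) in drinking water for 7 days while sexually immature. The other 8 mice were littermate controls, for which the labels give no other treatment. Ovaries were taken after the mice had reached sexual maturity. The ages and the stage of the oestrous cycle are not given in the sources used here. Each mouse is called by its group and its label number (DSS_10.4, for example), and the mouse is the replicate throughout.

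Hedgehog ligands bind Ptch1, which otherwise holds Smo inactive. Active Smo leads to transcription through the Gli proteins, and Gli1, Ptch1 and Hhip are themselves well-known targets of the pathway, so their transcripts are often read as its output. In the ovary, granulosa cells of growing follicles make Dhh and Ihh, and the surrounding theca and stromal cells carry the receptor and respond. Insl3 is made by theca cells and acts through the receptor Rxfp2.

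Libraries were made by CEL-Seq, which counts the 3' ends of polyadenylated transcripts, and held between 3095386 and 8564770 reads (median 4305814). Values are normalized counts, meaning reads divided by 1 size factor per library. Levels of different genes were not compared with each other. Oviduct transcripts were high in some ovaries: 7 libraries held over 5000 normalized counts of Ovgp1, the oviduct glycoprotein, and 9 mice (4 DSS and 5 control) had neither ovary among them. In bulk tissue, fewer cells of a type and less RNA per cell cannot be told apart.

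Insl3 could not be followed in these libraries, and whether it was transcribed cannot be read from its values, as set out below. No read was counted for it in any library. A count of 0 allows up to 3 reads per library, or between 1.59 and 3.98 normalized counts depending on the library, for counting error only. Transcripts of theca and interstitial cells were abundant in the same libraries. Cyp17a1, the theca enzyme of androgen synthesis, ranged from 33.15 to 4533.32 normalized counts (median 1205). Hsd3b1, which makes progesterone from pregnenolone, ranged from 43156.32 to 169090.71. None of the 10 genes of the theca and interstitial list was at 0 throughout. Rxfp2 had a mean of 0.101 normalized counts and a highest value of 1.3. The related relaxin receptor Rxfp1 had a mean of 33.9 but a median of 10.32. Its highest value, 363.55, was in the left ovary of DSS_11.2, which also held the most Ovgp1 (66715.91).

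Insl3 shares its 3' end with another gene, which matters for a 3' tag count, so the sequences at the junction are shown. The deposited interval of Insl3 (ENSMUSG00000079019.2, GRCm38, plus strand) is chr8:71689214-71690875, and its end lies 300 bases past the end annotated in GENCODE M21. It lies inside the deposited interval of Jak3, a cytokine receptor kinase on the same strand, which ends at the same base, and it also overlaps B3gnt3 on the opposite strand. The last exon of Insl3, chr8:71690172-71690575, has the same boundaries as the last exon of the Jak3 transcript ENSMUST00000051995.13. The last 404 bases of the Insl3 transcript (623 bases) and of that Jak3 transcript (4019 bases) were identical. The stretches across the junction follow, read from the GENCODE M21 transcripts, 5′ to 3′, with the preceding exon in lower case and the start of the shared last exon in capitals:
Insl3: agacccgggaccGGGAGCTGCTGCAGTGGC
Jak3: ccaggggcgagaGGGAGCTGCTGCAGTGGC
A tag in the shared exon, downstream of the junction, thus carries nothing that separates the transcripts. A further Jak3 transcript, ENSMUST00000130624.1, ends inside the shared exon, at 71690224, and the other annotated ones end upstream of Insl3, at 71680306, 71688556 and 71688558. Jak3 itself was counted at a mean of 8.90 normalized counts (1.89 to 18.61).

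**Figure D1:**
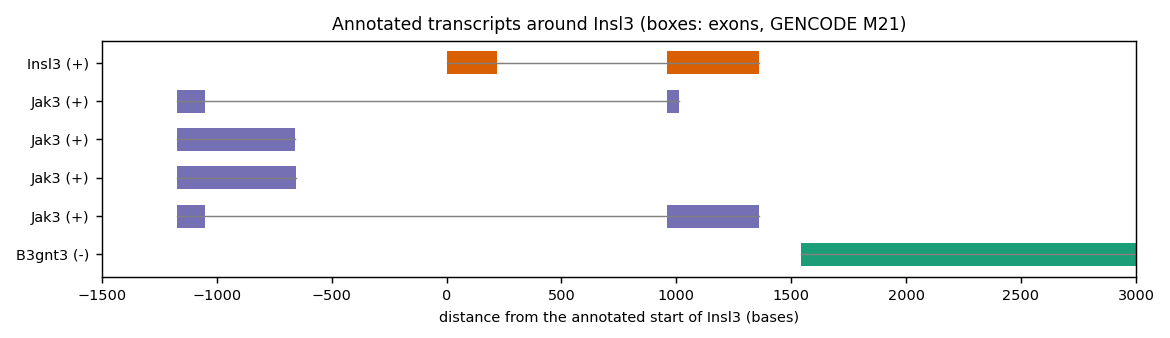
Exons (boxes) of the annotated transcripts of Insl3, Jak3 and B3gnt3, each row 1 transcript, against the distance in bases from the annotated start of Insl3, with the upstream exons of Jak3 and the downstream ones of B3gnt3 outside the axis. The last box of Insl3 coincides with the last box of 1 Jak3 transcript, another Jak3 transcript ends within that exon, and the rest end before Insl3 starts.

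Insl3 was not alone in this. Of 294 protein-coding genes whose last exon lies inside exons of another gene on the same strand, 172 (58.5%) were at 0 in all libraries, against 2768 of 21470 other protein-coding genes (12.9%). A mean of at least 5 normalized counts was reached by 47 of the former (16.0%) and 12995 of the latter (60.5%). The counting rule for reads that fit more than 1 gene is not given in the sources used here, and its part in the 0 of Insl3 was not tested. Whether Insl3 was transcribed cannot be read from a count of 0 under these conditions, and Insl3 was left out of every comparison and correlation.

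No member passed the test for DSS against control. limma on the log2(mean of both ovaries + 1) of each mouse called 0 of 14646 genes (0%) at an adjusted p under 0.05, edgeR called 6 and DESeq2 called 52, none of them among the 9. At an unadjusted p under 0.05, limma had 1169 genes (7.98%) and 1 of the 8 members tested, Gli2. Of the 8, 4 were higher and 4 lower in DSS mice, with a median difference of 0.0088 (log2) against 0.0018 over all genes tested.

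Among the ligands, Dhh (chr15:98892731-98898540, minus strand) ranged from 13.89 to 28.46 normalized counts over DSS mice (median 20.77) and from 21.93 to 33.53 over control mice (median 23.67). The groups overlapped, and 4 of 7 DSS mice lay below the control median. The difference was -0.23 on the log2(value + 1) scale (SE 0.15, 95% interval -0.55 to 0.096, limma adjusted p = 0.726). The deposited 3' end of Dhh lies 1579 bases inside the annotated gene, so tags beyond it may not have been counted, and its levels are read with that limit. Ihh (chr1:74945015-74951672, minus strand) ranged from 38.83 to 73.89 in DSS mice (median 44.92) and from 37.89 to 66.22 in control mice (median 40.71). These ranges nearly coincide, and the difference was 0.045 (SE 0.15, 95% interval -0.28 to 0.37, limma adjusted p = 0.958). Shh, the third mammalian ligand, was close to 0, with a highest value of 1.14.

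The receptor Ptch1 (chr13:63508028-63573598, minus strand) had 256 ± 35.1 normalized counts in DSS mice (SD, n = 7; 204.9 to 296.6, median 252.4). Control mice had 253 ± 39.4 (SD, n = 8; 193.0 to 304.1, median 259.7). The groups lay on top of each other, with a difference of 0.020 (log2, SE 0.10, 95% interval -0.20 to 0.23, limma adjusted p = 0.969). Smo (chr6:29735503-29761665, plus strand), the membrane protein that Ptch1 restrains, ranged from 81.63 to 109.8 in DSS mice (median 101.3) and from 89.76 to 122.8 in control mice (median 107.9). Its groups overlapped as well, at -0.11 (log2, SE 0.089, 95% interval -0.30 to 0.076, limma adjusted p = 0.771). Hhip (chr8:79965551-80058006, minus strand) ranged from 42.09 to 80.80 in DSS mice and from 49.21 to 82.20 in control mice, and differed by 0.019 (log2, SE 0.14, 95% interval -0.28 to 0.32, limma adjusted p = 0.981).

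Of the transcription factors, Gli2 (chr1:118833832-119053619, minus strand), regarded as the main activator of the family, set the DSS mice apart most, though without passing the adjusted threshold. It ranged from 12.01 to 18.45 normalized counts in DSS mice (median 13.65) and from 7.430 to 13.18 in control mice (median 9.50). All 7 DSS mice lay above the control median and 5 lay above the highest control mouse, while 6 control mice lay below the lowest DSS mouse. The difference was 0.47 (log2, SE 0.15, 95% interval 0.16 to 0.79, unadjusted p = 0.00513, limma adjusted p = 0.444), a fold of 1.39 on the log2(value + 1) scale. It rested on few reads, between 3 and 34 per library (median 12). The small spread of the mouse means hid a wide spread within mice: DSS_11.2 had 25.59 in its left and 2.94 in its right ovary, and DSS_11.1 had 7.67 and 20.86. Without the 7 ovaries rich in Ovgp1, which include the left ovary of DSS_11.2 and both of DSS_11.1, the limma difference was 0.14 (adjusted p = 0.918). The mouse numbers share the part before the point between groups, 10, 11, 13, 15 and 16, and the labels do not say what it stands for. The mean of Gli2 was higher in DSS mice under each of these 5 numbers, by 0.15 to 10.16 normalized counts. Each number held only 1 or 2 mice per group, and number 16 held 1 DSS mouse (13.23) and 1 control mouse (13.08). With the number as a term, chosen after seeing the data, the difference was 0.46 (limma adjusted p = 0.570). In left ovaries alone limma gave 0.50 (adjusted p = 0.610) and in right ovaries alone 0.40 (adjusted p = 0.860).

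Gli1 (chr10:127329582-127341974, minus strand), whose transcription follows pathway activity, ranged from 12.22 to 27.70 in DSS mice (median 20.70) and from 14.33 to 22.88 in control mice (median 20.03). The control mice lay within the DSS range, and the difference was -0.0014 (log2, SE 0.15, 95% interval -0.32 to 0.31, limma adjusted p = 0.999). Its sign changed with the scaling and the tool. Gli3 (chr13:15463235-15730326, plus strand), which acts largely as a repressor when the pathway is off, ranged from 11.02 to 26.63 in DSS mice and from 16.27 to 27.53 in control mice. It differed by -0.18 (log2, SE 0.16, 95% interval -0.51 to 0.15, limma adjusted p = 0.799).

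**Figure D2:**
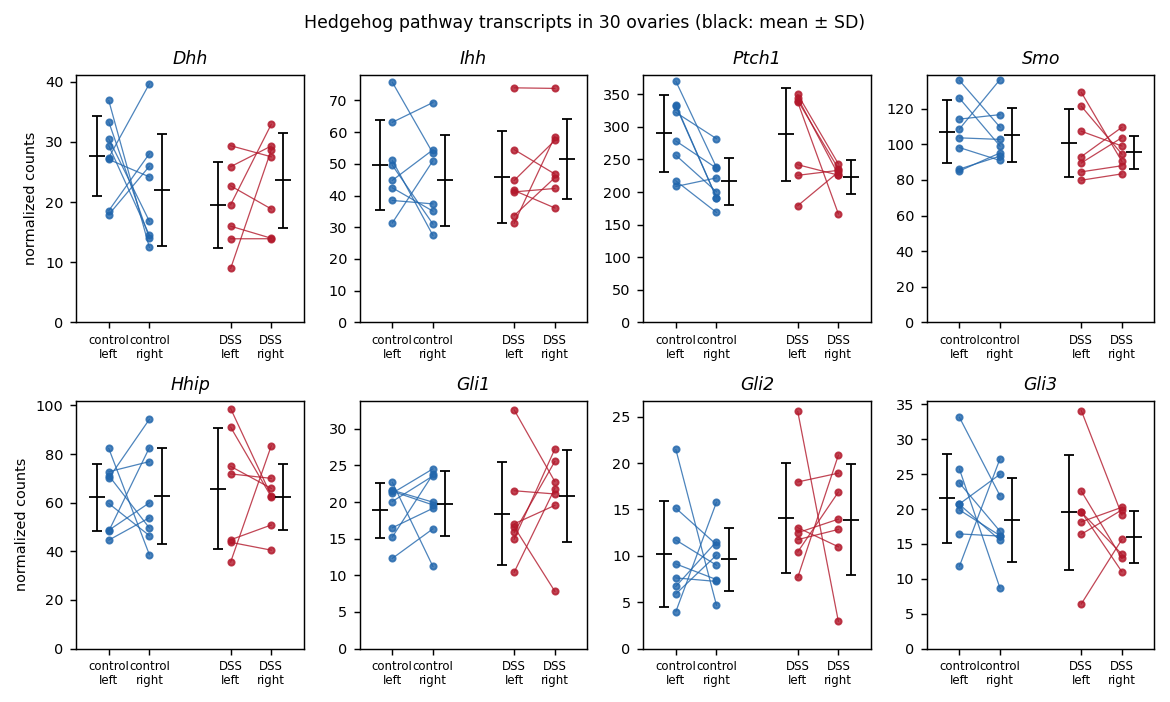
Normalized counts (vertical axes, linear, from 0) of the 8 Hedgehog genes with counts, in control (blue) and DSS (red) mice, left and right ovaries; each point is 1 ovary, lines join the ovaries of 1 mouse and black bars give the mean ± SD of 7 or 8 ovaries. Most Ptch1 lines fall from left to right in both groups, and the lines of the other genes cross.

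Left and right ovaries were compared within mice. Ptch1 was the only one of the 8 members to pass, and it was higher on the left. limma with the mouse as a block called 1488 of 14646 genes (10.2%), 668 of them higher on the left (4.56%), so 1 call among 8 members is near the background share and says nothing particular about the pathway.

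Left ovaries held 289 ± 62.5 normalized counts of Ptch1 (SD, n = 15), with a lowest value of 178.99, a median of 322.2 and a highest of 370.32. Right ovaries held 220 ± 30.6 (SD, n = 15), from 166.53 through a median of 226.7 to 282.00. The sides overlapped, but the left median lay above every right ovary. The difference was 0.38 (log2, SE 0.087, 95% interval 0.19 to 0.56, limma adjusted p = 0.00871), a fold of 1.30, and Ptch1 was higher on the left in 12 of 15 mice.

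The exceptions were DSS_10.4 (225.67 left, 233.37 right), DSS_11.1 (178.99 left, 230.75 right) and control_15.4 (208.52 left, 221.73 right). Left was higher in 5 of 7 DSS mice, with left ovaries from 178.99 to 349.85 (median 338.2) and right ovaries from 166.53 to 243.30 (median 230.8). It was higher in 7 of 8 control mice, with left ovaries from 208.52 to 370.32 (median 300.4) and right ovaries from 168.69 to 282.00 (median 211.1). The difference was 0.41 in control mice alone (limma adjusted p = 0.0299) and 0.34 in DSS mice alone, where it did not pass (limma adjusted p = 0.266). The difference between those groups was -0.074 (log2, SE 0.18, 95% interval -0.44 to 0.30, limma adjusted p = 0.940). Without ovaries rich in Ovgp1, the left-right difference of Ptch1 over 9 mice was 0.48 (limma adjusted p = 0.00408), and with the mouse block left out it was 0.38 (limma adjusted p = 0.0111).

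Transcripts of stratified epithelium also differed by side, and their part in the Ptch1 difference was not tested. All 6 genes of that list were higher on the left and 5 passed, Krt4, Krt5, Krt13, Krt14 and Sprr1a, and none was at 0 in every library. Their summed level ranged from 128.3 to 6273 in DSS left, 46.37 to 863.6 in DSS right, 337.3 to 5729 in control left and 71.4 to 550.7 in control right ovaries. Krt5, a basal keratin, was higher on the left in 15 of 15 mice, by 2.37 (log2, SE 0.21, limma adjusted p = 7.72e-07). Because Krt5 was higher on the left in every mouse, a fit with its level as a covariate can hardly tell it apart from side. In that fit the Ptch1 difference was 0.29 and did not pass (limma adjusted p = 0.830). The number of all genes called fell to 4, so the fit cannot decide the part of Krt5. Over the 15 mice, the left minus right differences of Ptch1 and Krt5 had r = 0.0885 (permutation p = 0.753; rho = 0.11, permutation p = 0.684), and 0.091 without the 2 mice farthest from the median of Ptch1.

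With the fat transcript Adipoq as the covariate the Ptch1 difference was 0.42, with Ovgp1 0.35 and with the smooth muscle myosin Myh11 0.40, and it passed in each (limma adjusted p = 0.00207, 0.00735 and 0.00431). Left ovaries carry odd and right ovaries even library numbers in the labels, so side and that number cannot be told apart. The table counts the gene A930032L01Rik on the same strand within the Ptch1 interval, which makes Ptch1 uncertain to that extent. Smo likewise overlaps Gm13717 on its own strand, and Gli1 (Arhgap9 and RP24-213L12.6), Gli2 (Mir6346), Gli3 (Gm6556) and Hhip (Gm27820) overlap genes on the opposite strand. Dhh and Ihh overlap none.

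**Figure D3:**
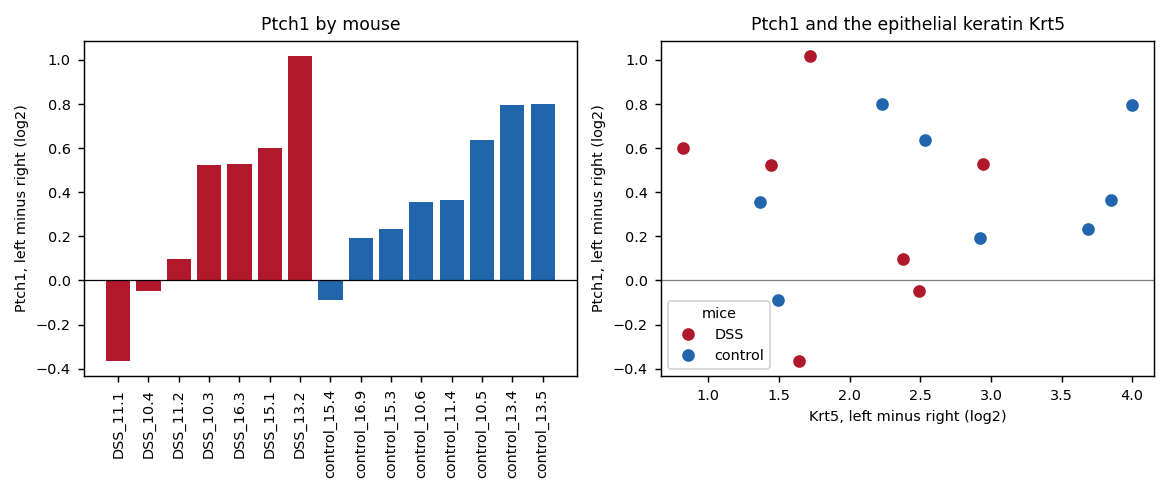
Left minus right difference of Ptch1, log2(value + 1), as 1 bar per mouse (left panel) and against that of the keratin Krt5 (right panel, 1 point per mouse), DSS mice in red and control mice in blue. Bars lie above 0 in 12 of 15 mice, every mouse lies above 0 for Krt5, and the points show little slope.

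The other receptors, ligands and factors did not pass between sides. Gli3 came nearest, with left ovaries from 6.390 to 34.12 (median 19.87) and right ovaries from 8.65 to 27.21 (median 16.19). Left was higher in 10 of 15 mice, and the difference was 0.21 (log2, SE 0.18, 95% interval -0.16 to 0.57, limma adjusted p = 0.531). Gli1 lay at -0.11 (95% interval -0.42 to 0.21), Dhh at 0.073 (-0.32 to 0.47), Gli2 at 0.039 (-0.52 to 0.59), Smo at 0.037 (-0.10 to 0.18), Hhip at 0.016 (-0.26 to 0.29) and Ihh at -0.0021 (-0.25 to 0.24). Of these, Smo had the narrowest interval, and Gli2 the widest. For Gli1 and Hhip, the other targets among the members, left was higher in 6 of 15 mice for Gli1 and in 8 of 15 for Hhip. Whether Ptch1 differed by side more than Gli1 or Hhip was not tested.

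**Figure D4:**
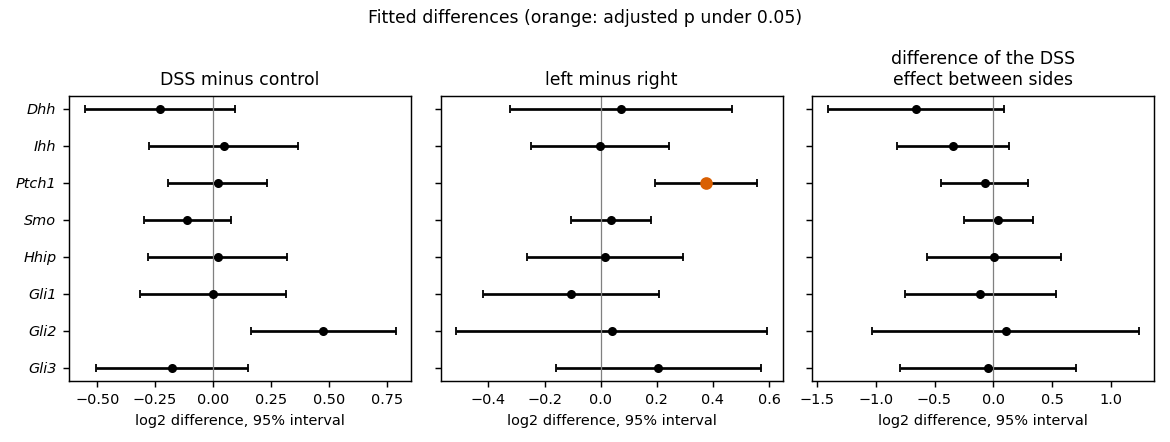
Fitted log2 differences (points) with 95% intervals (bars) of the 8 Hedgehog genes for DSS minus control, left minus right, and the left-right contrast of the DSS effect. Ptch1 in the left-right panel is the only one with an adjusted p under 0.05 (orange), and the Gli2 interval in the DSS panel lies above 0 without passing after adjustment.

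The DSS effect was then compared between sides. limma called 0 of 14646 genes (0%) at an adjusted p under 0.05 and 1248 (8.52%) at an unadjusted p under 0.05, while edgeR called 1 and DESeq2 called 2. None of the 8 members reached even the unadjusted threshold. Dhh had the lowest p. Its control left ovaries ranged from 17.91 to 36.91 (median 28.38) and right ovaries from 12.45 to 39.69 (median 20.50), while DSS left ovaries ranged from 8.95 to 29.38 (median 19.56) and right ovaries from 13.90 to 32.95 (median 27.54). The medians were higher on the left in control mice and on the right in DSS mice, with all 4 ranges overlapping. Left minus right averaged 0.38 ± 0.85 in control mice (SD, n = 8) and -0.28 ± 0.66 in DSS mice (SD, n = 7). The difference was -0.66 (log2, SE 0.36, 95% interval -1.41 to 0.091, unadjusted p = 0.0816, limma adjusted p = 0.633). For Ihh it was -0.34 (SE 0.23, 95% interval -0.82 to 0.14, limma adjusted p = 0.693). Markers of granulosa cells, which make both ligands, lay in the same direction: all 8 were lower, with a median of -0.62 (log2) beside -0.0013 over all genes tested, 4 had an unadjusted p under 0.05, and none passed after adjustment. Their summed level ranged from 9340 to 22000 in DSS left, 15620 to 22630 in DSS right, 14830 to 24420 in control left and 9519 to 24250 in control right ovaries, and none was at 0 in every library. All 10 theca and interstitial markers were lower too, with a median of -0.27, 2 of them at an unadjusted p under 0.05. So were all 5 oocyte markers (median -0.21) and all 6 of stratified epithelium (median -0.81), so the direction was not particular to granulosa cells. All 5 oviduct markers (median 3.35) and all 6 of smooth muscle and pericytes (median 0.95) were higher, 4 of each list at an unadjusted limma p under 0.05. None of these passed after adjustment. The part of these markers in the Dhh and Ihh differences was not tested.

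Of 27 other pathway genes, 23 were tested. In DSS mice 8 were higher and 15 lower, and none passed. Kif3a, a motor subunit needed for cilia, had 70.2 ± 4.61 normalized counts in DSS mice (SD, n = 7) and 58.9 ± 7.48 in control mice (SD, n = 8). The lowest DSS mouse had 66.63 and the highest control mouse 66.41, a narrow gap. How many of all genes tested separate the groups in this way was not counted, and Kif3a is named for the lowest p of its list. The difference of 0.26 (log2, SE 0.084) did not pass over all genes (limma adjusted p = 0.459). Boc, a co-receptor, had 73.1 ± 9.42 in DSS mice (SD, n = 7) and 86.0 ± 13.0 in control mice (SD, n = 8), a difference of -0.23 (SE 0.10, limma adjusted p = 0.600).

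Between sides, 1 of the 23 passed as higher and 1 as lower on the left, a share no larger than the 10.2% called over all genes. Kif3a was lower on the left in 14 of 15 mice, with 55.2 ± 9.70 against 73.2 ± 12.2 normalized counts (SD, n = 15), a difference of -0.40 (log2, SE 0.082, limma adjusted p = 0.00368). Spop, an adaptor that leads Gli proteins to degradation, was higher on the left in 12 of 15 mice, with 311 ± 27.6 against 278 ± 26.8 (SD, n = 15), a difference of 0.16 (log2, SE 0.048, limma adjusted p = 0.0362). For the DSS effect between sides none passed, and the lowest p were those of Scube2, which helps release ligands, at 0.45 (log2, SE 0.17, limma adjusted p = 0.542), and Tulp3, a ciliary trafficking protein, at 0.41 (SE 0.20, limma adjusted p = 0.595). The median difference of the 23 was -0.029 for DSS and -0.059 for left against right, beside 0.0018 and 0.0068 over all genes tested.

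Of 10 genes named as Hedgehog targets in other tissues, 8 were tested and none passed in any of the comparisons. 5 of the 8 were higher in DSS mice and 2 of the 8 were higher on the left.

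Theca and interstitial transcripts, the cells in which Hedgehog targets are usually placed, were tested as a list of 10. None passed for DSS, where Pdgfra at -0.12 (log2, limma adjusted p = 0.785) and Cyp11a1 at -0.15 (limma adjusted p = 0.822) had the lowest p. Between sides 2 of the 10 passed, in opposite directions, beside 10.2% of all genes. Cyp17a1 had 1039 ± 490.8 normalized counts on the left and 1535 ± 1060 on the right (SD, n = 15), was lower on the left in 13 of 15 mice, and differed by -0.52 (log2, SE 0.14, limma adjusted p = 0.0188). Nr2f2, a stromal nuclear receptor, was higher on the left in 11 of 15 mice, by 0.15 (log2, SE 0.047, limma adjusted p = 0.0437). Ptch1 and Nr2f2 were thus both higher on the left while Cyp17a1 was lower. For the DSS effect between sides, Cyp17a1 at -0.57 (limma adjusted p = 0.568) and Aldh1a1 at -0.30 (limma adjusted p = 0.581) had the lowest p, and neither passed. Of 8 granulosa markers 1 passed between sides, near the 10.2% of all genes. It was Nr5a2, an orphan nuclear receptor, which was lower on the left in 13 of 15 mice by -0.46 (log2, SE 0.13, limma adjusted p = 0.0287).

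Co-variation was examined over the 15 mice, on the log2(mean of both ovaries + 1). Of the 28 pairs among 8 members, 15 had a positive r, the median r was 0.069, and none passed after adjustment over the 28 pairs. The lowest p belonged to Smo and Gli2 (r = -0.54, permutation p = 0.0374, adjusted p = 0.422; rho = -0.58, permutation p = 0.0274, adjusted p = 0.510), and without the 2 mice farthest from the median of Smo r was -0.38. No pair of a ligand and a target passed. Among the targets, Ptch1 and Gli1 had r = 0.44 (permutation p = 0.0985, adjusted p = 0.422; rho = 0.33, permutation p = 0.238), and 0.47 without 2 mice. Ptch1 and Hhip had r = 0.46 (permutation p = 0.0847, adjusted p = 0.422; rho = 0.42, permutation p = 0.116), and 0.41 without 2 mice. Both relations were stronger in DSS mice, at 0.79 and 0.82 over 7 mice, than in control mice, at 0.060 and 0.11 over 8 mice, a difference that was not tested. Gli1 and Hhip had r = 0.13 (permutation p = 0.655; rho = -0.0036, permutation p = 0.995).

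The same pairs were taken in the left minus right differences, where what a mouse shares between its ovaries is removed. 19 of 28 had a positive r and none passed. Ihh and Hhip had r = 0.66 (permutation p = 0.00779, adjusted p = 0.218; rho = 0.51, permutation p = 0.0512, adjusted p = 0.548). Without the 2 mice farthest from the median of Ihh, r was 0.30, so the value rests largely on those mice. Within groups r was 0.84 over 7 DSS mice and 0.63 over 8 control mice. The ligands Dhh and Ihh had r = 0.52 (permutation p = 0.0476, adjusted p = 0.666; rho = 0.47, permutation p = 0.0784, adjusted p = 0.548), and without 2 mice 0.32.

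**Figure D5:**
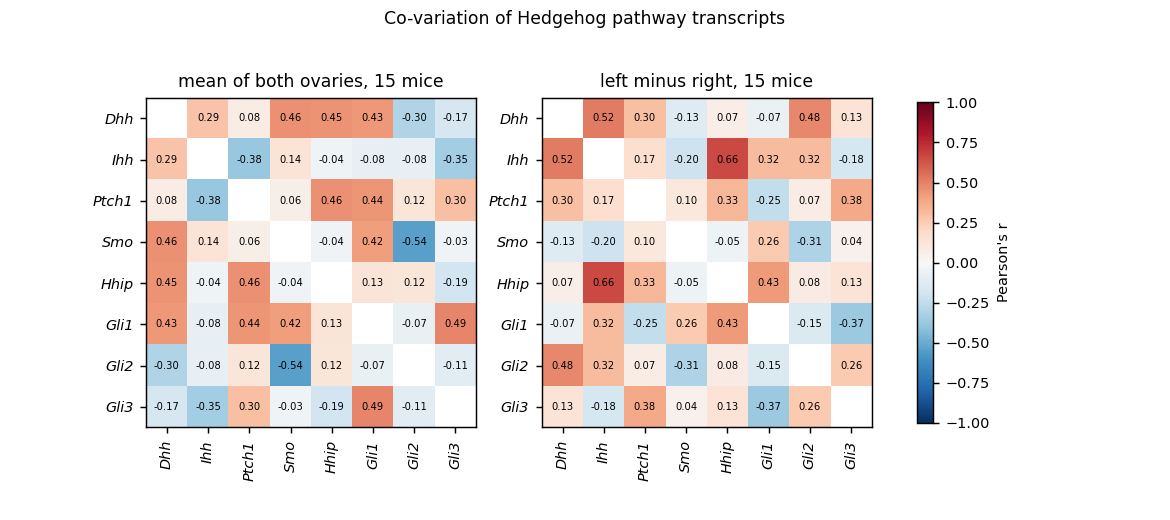
Pearson's r between the 8 Hedgehog genes over 15 mice, for the mean of both ovaries (left panel) and for left minus right differences (right panel), on log2(value + 1); the colour scale runs from -1 (blue) to 1 (red). The deepest cells are Smo with Gli2 at -0.54 in the left panel and Ihh with Hhip at 0.66 in the right panel, and no pair passed after adjustment.

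Members were also set against 12 markers of ovarian and other cells. Of 96 pairs over mice none passed after adjustment, and 11 had a permutation p under 0.05. Gli3 and Hsd3b1 had r = -0.67 (permutation p = 0.00561, adjusted p = 0.209; rho = -0.60, permutation p = 0.0203, adjusted p = 0.433), and without 2 mice r was -0.81. Within groups it was -0.64 over 7 DSS mice and -0.95 over 8 control mice. Gli3 also had r = -0.66 with the luteinizing hormone receptor Lhcgr (permutation p = 0.0151, adjusted p = 0.209; rho = -0.55, permutation p = 0.0385) and -0.57 with the cholesterol transporter Star (permutation p = 0.0276, adjusted p = 0.294; rho = -0.57, permutation p = 0.0293), or -0.66 and -0.29 without 2 mice. Values for the other steroid enzymes among the markers varied: Gli3 had r = -0.65 with Cyp17a1 (permutation p = 0.0165, adjusted p = 0.209; rho = -0.27, permutation p = 0.332), -0.35 with Cyp19a1 (permutation p = 0.205; rho = -0.011, permutation p = 0.974) and -0.17 with Akr1c18 (permutation p = 0.554; rho = -0.11, permutation p = 0.685). Dhh had r = 0.63 with the granulosa transcript Inha (permutation p = 0.0159, adjusted p = 0.209, rho = 0.45 with permutation p = 0.0911). With Myh11 it had r = -0.67 (permutation p = 0.00856, adjusted p = 0.209, rho = -0.49 with permutation p = 0.0685). Without 2 mice these fell to 0.38 and -0.28. With the other granulosa transcripts among the markers, Amh and Cyp19a1, Dhh had r = 0.059 (permutation p = 0.834) and 0.082 (permutation p = 0.77). With Hsd3b1 it had r = 0.62 (permutation p = 0.0145, adjusted p = 0.209), and 0.38 without 2 mice. With Ovgp1 Dhh had r = -0.52 (permutation p = 0.0468, adjusted p = 0.429), and -0.19 without 2 mice. Hhip had r = 0.56 with Inha (permutation p = 0.0174) and -0.60 with Myh11 (permutation p = 0.0160), both at an adjusted p of 0.209. Without 2 mice these were 0.18 and -0.36. Ptch1 and Star had r = -0.52 (permutation p = 0.0491, adjusted p = 0.429), and -0.38 without 2 mice.

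In left minus right differences, again none of 96 pairs passed. Ihh and Inha had r = 0.71 (permutation p = 0.00279, adjusted p = 0.134; rho = 0.66, permutation p = 0.00941, adjusted p = 0.371), and 0.56 without 2 mice. Gli2 and Star had r = -0.75 (permutation p = 0.00262, adjusted p = 0.134; rho = -0.74, permutation p = 0.00231, adjusted p = 0.222), and -0.52 without 2 mice. The relation of Gli2 and Star was -0.96 over 7 DSS mice and -0.45 over 8 control mice. DSS_11.2, whose left ovary is rich in Ovgp1, had the largest differences in size of any mouse, 2.755 for Gli2 and -2.395 for Star. The relation without this mouse alone was not tested. Ptch1 had its lowest p with Amh, a granulosa transcript (r = 0.59, permutation p = 0.0204, adjusted p = 0.344; rho = 0.51, permutation p = 0.0528), and r was 0.38 without 2 mice. That relation was 0.88 over 7 DSS mice and 0.031 over 8 control mice. With the granulosa enzyme Cyp19a1, Ptch1 had r = 0.55 (permutation p = 0.0324, adjusted p = 0.371), and 0.61 without 2 mice. With the theca enzyme Cyp17a1 it had r = 0.53 (permutation p = 0.0430, adjusted p = 0.375, rho = 0.49 with permutation p = 0.0650), and 0.65 without 2 mice. With Hsd3b1, Star and Lhcgr it had r = -0.016, -0.27 and -0.091. With the granulosa transcript Inha, Ptch1 had r = 0.56 (permutation p = 0.0308, adjusted p = 0.371; rho = 0.58, permutation p = 0.0252), and 0.60 without 2 mice. With Adipoq it had r = -0.54 (permutation p = 0.0386, adjusted p = 0.371; rho = -0.51, permutation p = 0.0514), and -0.43 without 2 mice.

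Levels in the left and right ovaries of a mouse showed no relation that passed in the main setting. Over 15 mice, r between the left and the right ovary ran from -0.47 for Gli2 to 0.35 for Smo, 3 of 8 were positive, and none passed a permutation p of 0.05. With the group means removed, Gli2 had r = -0.68 (permutation p = 0.00462, adjusted p = 0.0370; rho = -0.60, permutation p = 0.0191, adjusted p = 0.153), and -0.37 without 2 mice. A mouse with a high Gli2 value on one side thus tended to have a low one on the other in these counts, with r = -0.77 over 7 DSS mice and -0.71 over 8 control mice, while rho did not pass.

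Depth limits these relations. Counting error alone would give a coefficient of variation of 29.1% for Gli2, 23.1% for Gli3, 22.6% for Gli1 and 20.8% for Dhh, against 44.9%, 33.1%, 28.0% and 33.6% measured within groups. For Ptch1 it would give 6.28% against 20.0% measured, and for Hhip 12.6% against 29.2%, so most of the spread of these 2 lies above counting error. Ihh lay between, at 14.5% against 29.2%, and Smo had the smallest measured spread, 15.5%, with 9.97% from counting.

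The genes most like the members over the 30 libraries, by Pearson's r on log2(value + 1), are given as a description, since ovaries share mice and libraries share their scaling. For Ptch1 they were Fyn (r = 0.75), Ewsr1 (0.73) and Mad1l1 (0.72). For Dhh they were H2afv (0.70), Zfp28 (0.67) and Gm4926 (0.67), and for Ihh Naa50 (0.69), Socs7 (0.68) and Plekhh1 (0.64). For Gli1 they were Zfp407 (0.64), E230016M11Rik (0.63) and Mettl14 (0.63), and for Hhip Gm10138 (0.76), Kif15 (0.72) and Xpo5 (0.66). No member was among the candidates. The 3 genes nearest Ptch1 had r of 0.65, 0.60 and 0.59 once group and side means were removed.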

How the data were processed

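CEL-Seq libraries of 30 ovaries were analysed from 1 deposited table. The authors deposited a signal per gene, normalized counts to 2 decimals; as the values show, these are reads over 1 size factor per library. Per the labels' protocols, each sample carried a pool of 3 primers, and the table holds 1 column per ovary. The tools TopHat, HTSeq and DESeq2 and the build GRCm38.p5 are listed, per the submitters' processing notes. Their versions and settings are not given in the sources used here. Within a library, nearly all values were multiples of 1 step (0.53 to 1.33). Division by it gave whole reads for 99.77% to 100% of genes above 0, within 0.0051.

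Genes with a mean of at least 5 were tested two-sided with limma 3.58.1 (R 4.3.3, with a mean-variance trend, pseudocount 1) with Benjamini-Hochberg adjustment over 14646 genes and a threshold of 0.05. DSS and control were compared on mouse means (7 and 8 mice), left and right with the mouse as a block, and the DSS effect between sides on left minus right differences. edgeR 4.0.16 and DESeq2 1.42.0 were run on the recovered reads as alternatives. Fold changes on the log2(value + 1) scale understate the change of low genes. The fits were tested on simulated data. Correlations used 100000 two-sided permutations of mice. Both ovaries of a number come from 1 animal, which is the source of the pairing; after removal of group means their deviations had r from -0.27 to 0.37 (median 0.18), over 0.1 in 10 of 15 mice.

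All 9 genes are described. Of the other pathway and theca genes, each one that passed is named, or else the 2 with the lowest p, and the marker genes Nr5a2, Krt5 and its list were named after their values were seen. Members and lists were chosen with earlier results of these data known. Positions are as deposited, and exons and sequences come from GENCODE M21. The planned exact permutation test for members under the filter gave no value, because Insl3 was at 0 throughout. Alternatives changed the pseudocount, filter, scaling, tool, mice and ovaries used. The Krt5, Adipoq, Ovgp1 and Myh11 covariates, the term for the label number that mice share and the marker pairs in left minus right differences were chosen after seeing the data.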

Additional observations from a re-analysis of the deposited data

Results flagged for a closer look

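Each of the 8 genes was examined in the 4 groups of 7 or 8 ovaries for a lowest or highest ovary far from the rest, 32 groups in all. In 2 of them 1 ovary stood apart, and chance alone marks about 1 in 20 such groups. Ptch1 in the right ovary of DSS_13.2 was 166.53 normalized counts, with the next lowest DSS right ovary at 225.97; without this mouse the left-right difference of Ptch1 was 0.33 (log2, limma adjusted p = 0.0181). Gli1 in the right ovary of DSS_11.1 was 7.82 normalized counts, with the next lowest at 19.55.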

How the results depend on the processing

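The left-right call of Ptch1 held under every alternative run except DSS mice alone (0.34, limma adjusted p = 0.266) and the Krt5 covariate (0.29, limma adjusted p = 0.830). The latter can hardly be told apart from side. The Ptch1 difference ran from 0.33 to 0.43 as each mouse was left out. The other 7 members were called under none. Without the replicate block 1163 genes were called between sides in place of 1488, and the pairing changed no member's call. No value was to be had for Insl3 under any alternative. Depth limits Gli2, Gli3, Gli1 and Dhh most, with medians of 12, 19, 20 and 23 reads per library.

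For DSS, genes called numbered 6 with edgeR, 52 with DESeq2, 10 without Ovgp1-rich ovaries, 11 in left and 1 in right ovaries, 3 with the label number before the point as a term, and 0 to 13 as each mouse was left out (13 without DSS_15.1). Between sides they numbered 733 without Ovgp1-rich ovaries, 115 in DSS mice, 384 in control mice and 4 with the Krt5 covariate, fewer mice being used in the first 3. For the DSS effect between sides they numbered 1 with quantile normalization, 1 with edgeR, 2 with DESeq2, 1 without Ovgp1-rich ovaries, 1 with the label number as a term, and 0 to 2 as each mouse was left out (2 without DSS_11.2). In the correlation between the left and right ovaries over mice, 1 member (Gli2) passed with group means removed, in place of 0. The cause of these moves was not tested.

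Signs changed only for differences that did not pass. For DSS, Gli1 went to 0.0022 (pseudocount 5), 0.0019 (TMM), 0.0060 (edgeR), 0.0092 (DESeq2), 0.24 (without Ovgp1-rich ovaries), 0.014 (label number) and 0.029 (right), Hhip to -0.0029 (quantile) and -0.00074 (DESeq2), Ptch1 to -0.023 (without Ovgp1-rich ovaries) and -0.021 (left), Ihh to -0.12 (left) and Dhh to 0.13 (right). Between sides, Hhip went to -0.0089 (quantile), Ihh to 0.11 and Gli2 to -0.20 (without Ovgp1-rich ovaries), Dhh to -0.28 (DSS mice), Ihh to 0.16 and Gli2 to -0.0093 (control mice), Gli1 to 0.41 and Gli3 to -0.41 (Krt5), Ihh to 0.028 and Gli2 to -0.056 (Adipoq), and Ihh to 0.027 and Gli2 to -0.081 (Myh11). For the DSS effect between sides, Hhip went to -0.016 (TMM) and -0.042 (quantile), Gli2 to -0.024 (quantile), Gli3 to 0.0067 (edgeR), 0.0058 (DESeq2) and 0.19 (without Ovgp1-rich ovaries), Ptch1 to 0.34 (without Ovgp1-rich ovaries), and with the label number Ptch1 to 0.023, Gli2 to -0.13, Gli3 to 0.023 and Hhip to -0.028.

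As each mouse was left out, DSS differences ran from -0.059 to 0.12 (Ihh), -0.034 to 0.071 (Ptch1), -0.087 to 0.10 (Gli1) and -0.042 to 0.11 (Hhip). Left-right differences ran from -0.029 to 0.19 (Dhh), -0.065 to 0.061 (Ihh), -0.15 to 0.17 (Gli2) and -0.060 to 0.10 (Hhip). Differences of the DSS effect between sides ran from -0.19 to 0.043 (Ptch1), -0.032 to 0.092 (Smo), -0.30 to 0.034 (Gli1), -0.34 to 0.39 (Gli2), -0.24 to 0.18 (Gli3) and -0.11 to 0.21 (Hhip). The cause of these sign changes was not tested.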
